A study of Mus musculus with 33 samples.

Results

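The Hippo pathway effectors YAP (gene Yap1) and TAZ (gene Wwtr1), the DNA-binding partner Tead1, the inhibitory kinases Lats1 and Lats2, and the target genes Ccn1, Ccn2, Ankrd1 and Amotl2 were followed in mouse liver over 11 times after 70% partial hepatectomy. These 9 genes were chosen by name from the 18193 genes that the array annotation gives as the single symbol of a probe set. Where a gene has several probe sets, the one of highest average signal was read. A threshold of log2 5 on at least 3 arrays kept 13642 genes for testing and 8 of the 9 members. Ankrd1 did not pass it.

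Total RNA came from livers at 0 days (d), in the first day at 0.25, 0.5 and 0.75 d, then at 1, 1.5 and 2 d, and later at 3, 4, 7 and 14 d after surgery, with 3 biological replicates per time on 33 Affymetrix arrays. The labels give the same 70% resection for every group, 0 d included. The 0 d livers were the reference and are taken here as untreated, and no sham-operated group was used here. The labels used here give no strain, sex or age.

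YAP and TAZ are coactivators without DNA-binding domains of their own. When the LATS kinases phosphorylate them they stay in the cytoplasm or are degraded; when they do not, YAP and TAZ enter the nucleus and switch on genes mainly through TEAD factors. In liver, the pathway is known for limiting organ size and for restraining hepatocyte growth. Because control acts largely on the proteins, the RNA of YAP or LATS does not measure pathway activity, and none of the values below is a protein or phosphorylation measurement.

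All values are log2 signals, so a difference of 1 is a doubling. Differences were tested with limma in a single fit over all 33 arrays, and adjusted p is the Benjamini-Hochberg value over the 13642 genes tested within a comparison; a gene is called where it is under 0.05. Errors after ± are standard errors of the fitted difference. The samples of 0.25, 0.5, 0.75 and 1.5 d carry a later run of accession numbers than those of the other 7 times; the labels name no batch, so any effect of that division cannot be told apart from time where a comparison crosses it.

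Array medians lay between 5.32 and 5.38, and no arrays held identical values. The third replicate of 0.5 d stood apart: over the tested genes its correlation was 0.971 with the other 0.5 d arrays and 0.978 with the 0.25 d arrays. Results that rest on it are given with and without it. Some other arrays were also nearest to another time. Among them was 2 d replicate 2, at 0.984 with the other 2 d arrays and 0.991 with those of 1.5 d. The mean of 7 measured cell cycle markers was 10.03, 8.11 and 10.41 at 2 d, so these livers differed in stage markers. What this did to the 2 d results was not tested. The albumin gene Alb read 14.60 to 14.80 on every array, at the level of a liver sample, although a description field in the labels speaks of fat-derived cells. In whole-liver RNA, fewer cells of a type and less RNA per cell cannot be told apart.

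Over the 11 times, 6 of the 8 tested members varied by the moderated F-test, beside 69.4% of all genes tested. Yap1 (adjusted p = 3.22e-07), Ccn2 (6.71e-07), Tead1 (2.94e-05), Wwtr1 (0.00243), Lats1 (0.0131) and Amotl2 (0.0287) passed, in limma's F-test. Ccn1 (0.0726) and Lats2 (0.412) did not. Ccn1 passed without the third 0.5 d array (0.02), and Amotl2 failed when any of 5 single arrays was left out (0.0522 to 0.0659).

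**Figure D1:**
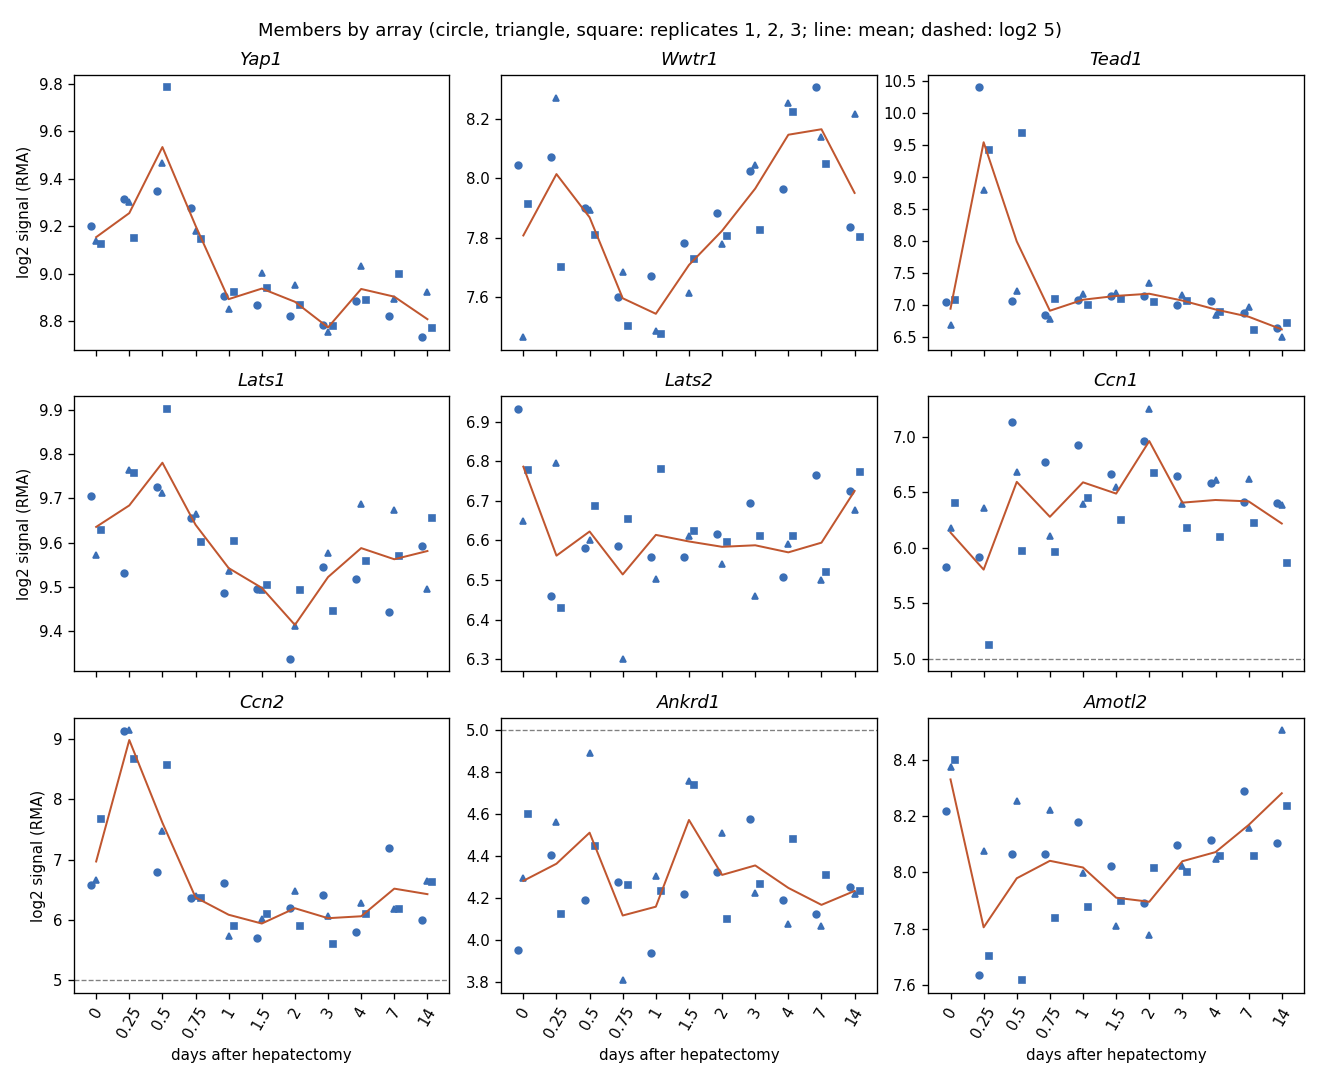
Log2 signal of each member on every array (vertical axis, own scale per gene) against days after hepatectomy (horizontal axis, evenly spaced times); circles, triangles and squares are replicates 1, 2 and 3, the line is the mean of 3 arrays and the dashed line is log2 5. Tead1 and Ccn2 peak at 0.25 d, Yap1 is highest at 0.5 d and lowest at 3 d, and all 33 values of Ankrd1 lie below the dashed line.

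At 0.25 d after surgery, 3 of the 8 tested members were called against 0 d, beside 45.9% of all genes: Tead1 and Ccn2 rose and Amotl2 fell. At 0.5 d, Yap1 and Tead1 were called higher and Amotl2 lower, again 3 of 8, beside 35.2% of all genes. No member was called at 0.75 d (22.5% of all genes), and 2 of 8 had an unadjusted p under 0.05 there in limma. Yap1 alone was called at 1 d (17.7%) and at 3 d (21.2%), both lower. Ccn2 and Amotl2 were called lower at 1.5 d (20%). At 2 d, 4 of 8 were called (22.5%), with Ccn1 higher and Yap1, Lats1 and Amotl2 lower. None was called at 4 d (2.86%), 7 d (0.183%) or 14 d (0.0147%), where 4, 2 and 1 of the 8 had an unadjusted p under 0.05 in limma. All of these comparisons share the same 3 arrays of 0 d. Between neighbouring times, 4 members were called from 0.25 d to 0.5 d (21.2% of all genes) and 1 from 0.5 d to 0.75 d (2.29%). In limma none was called in the steps to 1 d (1.17% of all genes), 1.5 d (2.1%), 2 d (1.6%), 3 d (0.418%), 4 d (6.25%), 7 d (0%) and 14 d (0%), nor between 1.5 d and the mean of 1 d and 2 d (0.022%); in the step to 1 d, 1 of 8 had an unadjusted p under 0.05, and in the others 0.

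**Figure D2:**
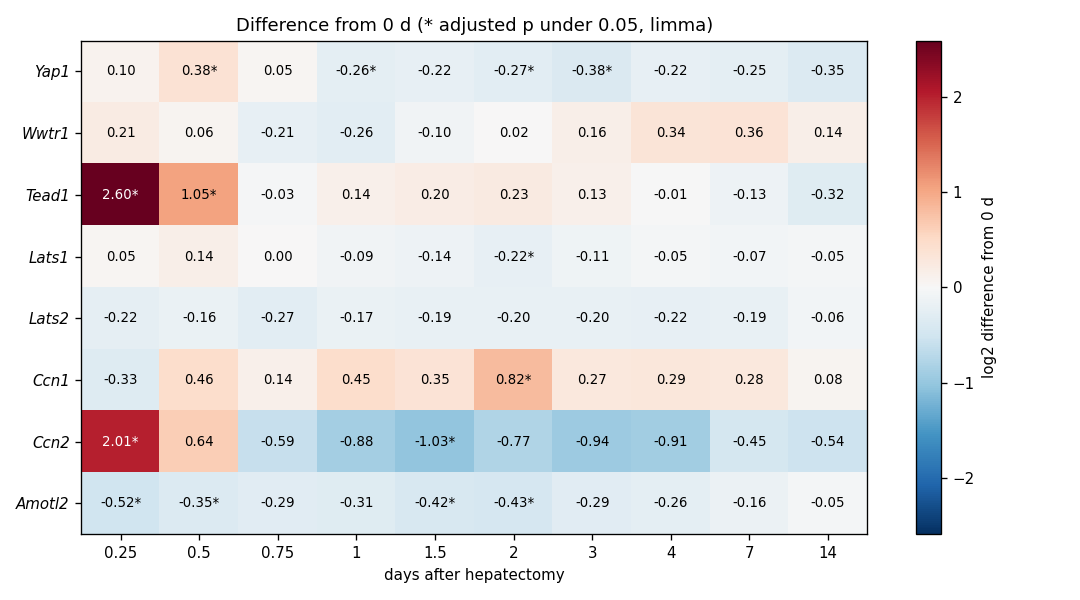
Log2 difference from 0 d (colour and printed value) for the 8 tested members (rows) at the 10 later times (columns); an asterisk marks an adjusted p under 0.05 in limma, n = 3 arrays per time. The largest cells are Tead1 and Ccn2 at 0.25 d, at 2.60 and 2.01, and no cell from 4 d on carries an asterisk.

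Yap1 rose at 0.5 d and was called below its starting level at 1 d, 2 d and 3 d, by less than 1 log2 unit each way. Its signal was 9.20, 9.14 and 9.13 at 0 d, 9.32, 9.30 and 9.15 at 0.25 d, and 9.35, 9.47 and 9.79 at 0.5 d. Every 0.5 d array was above every array of the earlier times. At 0.75 d it read 9.28, 9.18 and 9.15, at 1 d 8.91, 8.85 and 8.92, and at 3 d 8.79, 8.76 and 8.78. From 1 d to 14 d no array exceeded 9.03, which is below each of the 12 arrays taken up to 0.75 d.

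The rise of Yap1 at 0.5 d was 0.38 ± 0.08 (adjusted p = 0.000971), a 1.30-fold change. It was 0.25 without the third 0.5 d array (adjusted p = 0.0162), and it was not called when only the arrays of the 2 times entered the fit (0.0919). The steps on either side were also called: +0.28 ± 0.08 from 0.25 d to 0.5 d (adjusted p = 0.0202) and -0.33 ± 0.08 from 0.5 d to 0.75 d (adjusted p = 0.0353). Without the third 0.5 d array they were 0.15 (adjusted p = 0.163) and -0.20 (adjusted p = 0.468). These steps lie inside the later run of accession numbers. At 0.25 d Yap1 differed from 0 d by +0.10 ± 0.08 (adjusted p = 0.337), and by 0.22 after quantile normalization of the deposited values (adjusted p = 0.027).

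Yap1 was then lower than at 0 d by 0.26 ± 0.08 at 1 d (adjusted p = 0.0332), by 0.27 ± 0.08 at 2 d (0.021) and by 0.38 ± 0.08 at 3 d (0.00207), all in limma's fit. The 0 d, 1 d, 2 d and 3 d samples belong to the same run of accession numbers. The differences at 7 d and 14 d were of similar size but not called. They were -0.25 ± 0.08 at 7 d (unadjusted p = 0.00656, adjusted p = 0.202, limma) and -0.35 ± 0.08 at 14 d (0.00039 and 0.118). Under an adjustment joint over the comparisons with 0 d, both were called (adjusted p 0.0387 and 0.00461). The 3 d call was kept whichever single array was left out, whereas the 1 d call was lost without each of 6 arrays (all those of 0 d and 1 d, adjusted p 0.0504 to 0.109) and the 2 d call without each of 3 (0 d replicate 1, 2 d replicates 1 and 3).

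The late fall was called with only 1 of the 2 Yap1 probe sets. The other, 1416487_a_at, read 7.37, 7.05 and 7.08 at 0 d, 8.15, 7.89 and 7.70 at 0.25 d, and 7.98, 8.14 and 8.11 at 0.5 d. Its 0.25 d and 0.5 d arrays did not overlap those of 0 d. The rise was 0.75 ± 0.13 at 0.25 d (adjusted p = 7.72e-05 over probe sets, limma) and 0.91 ± 0.13 at 0.5 d (7.51e-06), larger than with 1448363_at at both times. It was still called higher at 0.75 d, by 0.46 ± 0.13 (adjusted p = 0.0152). At 3 d its difference was +0.19 ± 0.13 (adjusted p = 0.34) and at 4 d -0.02. With the mean of both probe sets, Yap1 was called higher at 0.25 d (0.43, adjusted p = 0.000407), and its differences at 1 d, 2 d and 3 d (-0.003, -0.02 and -0.09) were not called (adjusted p 0.985, 0.915 and 0.5). At 0.5 d both probe sets were called higher. At 14 d both means were under that of 0 d, by -0.12 for 1416487_a_at and -0.35 for 1448363_at, and neither was called (adjusted p 0.713 and 0.14).

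**Figure D3:**
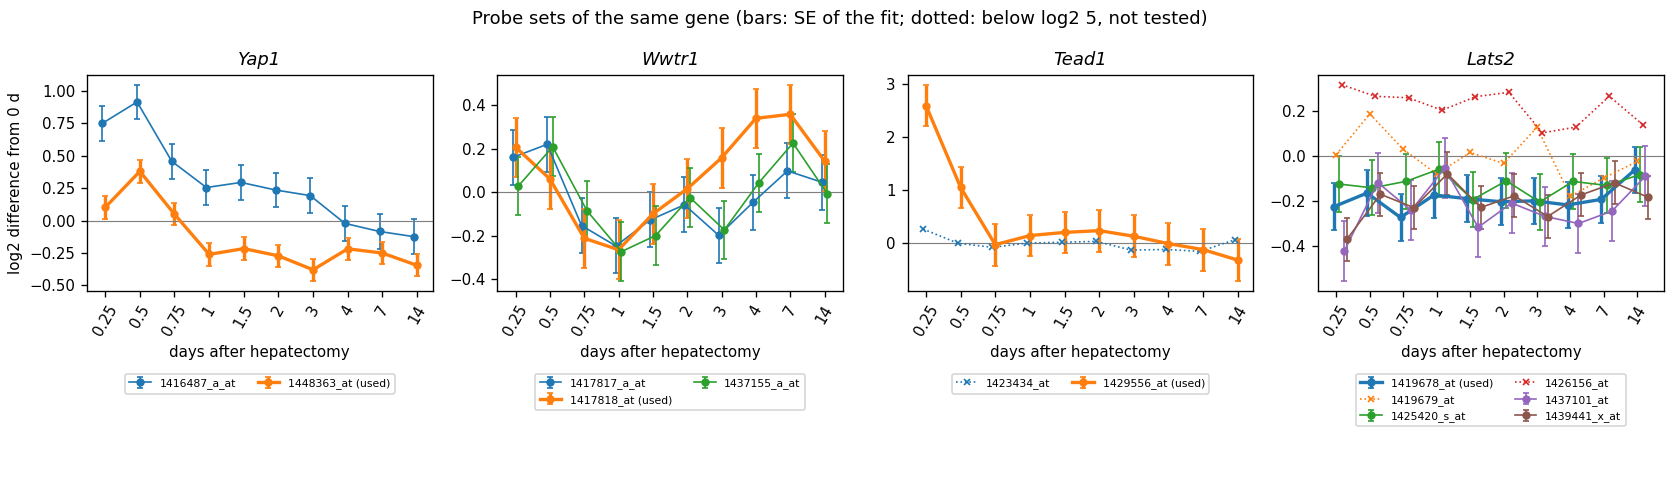
Log2 difference from 0 d (vertical axis, own scale per panel) against days after hepatectomy (horizontal axis) for every probe set of Yap1, Wwtr1, Tead1 and Lats2; the thick line is the probe set used, bars are standard errors of the fit, and dotted lines with crosses are probe sets below log2 5, which were not tested. The 2 Yap1 lines peak together at 0.5 d, at 0.91 and 0.38, lie on either side of 0 at 3 d, at 0.19 and -0.38, and are both below it at 14 d, at -0.12 and -0.35.

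Wwtr1, which encodes the YAP paralog TAZ, varied over the times but was called at none of the 10 later ones against 0 d in limma, with an unadjusted p under 0.05 at 2 of them. It read 8.05, 7.46 and 7.91 at 0 d, a spread that covers most of its later values. The lowest mean was at 1 d (7.67, 7.48 and 7.48), although the lowest single array was the second of 0 d. The highest means were at 4 d (7.96, 8.25 and 8.22) and 7 d (8.31, 8.14 and 8.05). The difference from 0 d was -0.26 ± 0.14 at 1 d (adjusted p = 0.195) and +0.36 ± 0.14 at 7 d (adjusted p = 0.259), although the 3 arrays of 7 d all exceeded those of 0 d, the lowest of them narrowly. At 0.25 d it was +0.21 ± 0.14 (adjusted p = 0.217), or 0.37 after quantile normalization (0.0215, limma). Within the later run of accession numbers 0.25 d was above 0.75 d by 0.42 ± 0.14 (adjusted p = 0.0207, limma), a comparison added after seeing the data in which 30.5% of all genes were called. For Yap1 the same difference was +0.05 ± 0.08 and not called (adjusted p = 0.678). Over the 33 arrays Yap1 and Wwtr1 had a Pearson correlation of -0.07, given as a description of arrays that share times. Whether the 2 time courses differ from each other was not tested. The other Wwtr1 probe sets had a smaller late difference: 1417817_a_at differed from 0 d by +0.22 ± 0.13 at 0.5 d, its highest mean, by -0.05 ± 0.13 at 4 d and by +0.10 ± 0.13 at 7 d, and 1437155_a_at by +0.21 ± 0.13, +0.04 ± 0.13 and +0.23 ± 0.13. None of these was called (adjusted p 0.19 to 0.923).

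Tead1, a TEAD family transcription factor through which YAP and TAZ bind DNA, had the largest difference from 0 d among the 8 tested members. It read 7.06, 6.70 and 7.08 at 0 d and 10.40, 8.80 and 9.43 at 0.25 d. The groups were far apart, and the 0.25 d arrays differed among themselves by more than the whole range of the 27 arrays outside 0.25 d and 0.5 d. The rise was 2.60 ± 0.40 (95% interval 1.78 to 3.41, adjusted p = 1.09e-05), or 6.05-fold. At 0.75 d it read 6.85, 6.79 and 7.10, which overlaps 0 d, with the third array just above the highest of 0 d.

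At 0.5 d the Tead1 arrays were 7.06, 7.23 and 9.69. The third replicate was inside the range of 0.25 d and the others were close to 0 d. The difference from 0 d, 1.05 ± 0.40 (adjusted p = 0.0409), fell to 0.20 without that array (adjusted p = 0.599), and the call was also lost without each of the 0 d arrays. The fall from 0.25 d to 0.5 d was -1.55 ± 0.40 (adjusted p = 0.0066) and -2.40 without it (1.98e-07); it was lost without 0.25 d replicate 1, 0.5 d replicate 1 or 0.5 d replicate 2 (adjusted p 0.0597 to 0.0657). The 0.25 d rise was kept whichever single array was left out, and 0.25 d exceeded 0.75 d, inside the same run of accession numbers, by 2.63 ± 0.40 (adjusted p = 2e-05). From 0.75 d to 14 d no comparison of Tead1 with 0 d was called.

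The rise was read from a single Tead1 probe set, 1429556_at. The other, 1423434_at, stayed between 4.10 and 4.84 on all arrays, below the threshold for testing, with means of 4.39 at 0 d and 4.65 at 0.25 d. With the mean of both probe sets the 0.25 d difference was 1.43 and still called. The paralogs Tead3 and Tead4, named here after their values were seen, differed from 0 d at 0.25 d by +0.13 ± 0.12 (adjusted p = 0.407) and +0.46 ± 0.11 (adjusted p = 0.00118). Tead2 did not pass the threshold.

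Among the kinases that restrain YAP and TAZ, the used probe sets differed from 0 d by no more than -0.27 (Lats2 at 0.75 d), and only Lats1 at 2 d was called. Lats1 read 9.71, 9.57 and 9.63 at 0 d and 9.34, 9.41 and 9.49 at 2 d, without overlap, a difference of -0.22 ± 0.08 (adjusted p = 0.0381). That call was lost without each of 4 arrays (0 d replicates 1 and 3, 2 d replicates 1 and 2) and with the mean of the probe sets (-0.17, adjusted p = 0.122). With that mean Lats1 was called lower at 3 d instead (-0.24, adjusted p = 0.0265, limma). At 0.5 d, Lats1 reached its highest mean (9.73, 9.71 and 9.90), +0.14 ± 0.08 above 0 d and not called (adjusted p = 0.152). After quantile normalization over the tested genes only, a scaling chosen after seeing the data, Lats1 was called higher at 0.5 d (0.21, adjusted p = 0.0226, limma). It was then also called higher at 0.25 d (0.20, adjusted p = 0.0281).

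Lats2 was called at none of the 10 later times against 0 d in limma, with an unadjusted p under 0.05 at 3 of them. It read 6.93, 6.65 and 6.78 at 0 d and 6.46, 6.80 and 6.43 at 0.25 d, a difference of -0.22 ± 0.10 (95% interval -0.44 to -0.01, adjusted p = 0.0749). Of the other tested Lats2 probe sets, 1437101_at at -0.42 ± 0.13 (adjusted p = 0.0125) and 1439441_x_at at -0.37 ± 0.10 (adjusted p = 0.00306) were called lower at this time. The probe set 1425420_s_at, at -0.12 ± 0.12 (adjusted p = 0.432, limma), was not. Below the threshold for testing, 1419679_at and 1426156_at differed by +0.007 and +0.32. Lats2 is itself known as a YAP target that feeds back on the pathway.

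Of the target genes, Ccn1, Ankrd1 and Amotl2, as well as Yap1 and Wwtr1, carry the core TEAD recognition letters GGAATG, on either strand, within the 250 bases before their annotated start. The letters are in a window of 5 of the 7 members searched, in RefSeq (GRCm38.p6) windows, and of 14.4% of 27025 genes. The windows of Lats1 and Lats2 do not hold them. Ccn2 and Tead1 were not searched. The AP-1 letters TGANTCA and the CArG box of the serum response factor SRF, each searched on both strands, were in no window of the 7 members (7.82% and 1.62% of all genes). A match describes letters, not binding. The sequences are shown because these are the letters through which TEAD factors, with YAP or TAZ, are known to act; each runs 5′ to 3′ on the gene's strand, capitals mark the match, and CATTCC is the same core on the opposite strand. The first gives the whole Ccn1 window (chr3:145649986-145650235, minus strand), and the others give 30 bases around each match of Ankrd1 (chr19:36120037-36120066 and chr19:36119950-36119979, minus strand), Amotl2 (chr9:102717727-102717756, plus strand, inside the gene's annotated span, which begins upstream), Yap1 (chr9:8004720-8004749, minus strand) and Wwtr1 (chr3:57576029-57576058, minus strand).
Ccn1: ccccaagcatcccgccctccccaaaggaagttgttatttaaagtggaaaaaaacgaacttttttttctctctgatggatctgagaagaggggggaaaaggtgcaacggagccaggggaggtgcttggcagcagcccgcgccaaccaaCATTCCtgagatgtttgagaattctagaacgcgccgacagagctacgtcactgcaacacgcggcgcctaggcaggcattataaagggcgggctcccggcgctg
Ankrd1, distal: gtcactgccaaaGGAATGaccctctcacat
Ankrd1, proximal: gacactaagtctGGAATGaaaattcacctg
Amotl2: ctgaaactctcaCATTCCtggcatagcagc
Yap1: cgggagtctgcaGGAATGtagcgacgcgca
Wwtr1: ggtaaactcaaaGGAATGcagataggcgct

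Ccn2, which encodes the secreted matricellular protein also called connective tissue growth factor, followed Tead1 at the earliest time. It read 6.57, 6.66 and 7.67 at 0 d and 9.13, 9.14 and 8.66 at 0.25 d, with no overlap. The rise was 2.01 ± 0.35 (95% interval 1.29 to 2.73, adjusted p = 5.05e-05), or 4.03-fold, and it was kept whichever single array was left out. Within the later run of accession numbers, 0.25 d exceeded 0.75 d by 2.60 ± 0.35 (adjusted p = 4.42e-06).

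At 0.5 d Ccn2 read 6.79, 7.47 and 8.57, with the third replicate again the highest. The difference from 0 d was 0.64 ± 0.35 (adjusted p = 0.163) and 0.16 without that array (adjusted p = 0.775). The fall from 0.25 d was -1.37 ± 0.35 (adjusted p = 0.00637), and -1.85 without the third 0.5 d array (0.000211); without replicate 1 of 0.5 d it was -0.96 and not called (0.058). By 0.75 d the arrays were 6.36, 6.40 and 6.36.

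Later Ccn2 values lay mostly under those of 0 d. At 1.5 d they were 5.71, 6.02 and 6.10, below every 0 d array, a difference of -1.03 ± 0.35 (adjusted p = 0.038). The third 0 d array, at 7.67, was about 1 log2 unit above the other 0 d arrays, and without it the difference was -0.67 and not called (adjusted p = 0.211); it was also not called without each of the 1.5 d arrays. At 3 d the difference was -0.94 ± 0.35 (adjusted p = 0.0562). That 0 d array also had the highest mean of the vascular smooth muscle markers among the arrays of 0 d to 0.75 d, 6.99 against 5.54 and 5.22 in the other 0 d arrays; their part in the Ccn2 value was not tested.

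Over all 33 arrays Tead1 and Ccn2 had a Pearson correlation of 0.82, a description of arrays that share times and in which the 0.25 d arrays and the third 0.5 d array are the high points of both. The 0.5 d array with high Tead1 was also the 0.5 d array with high Ccn2.

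From 0 d to 0.75 d, the mean of the 5 measured adipocyte markers, of 7 listed, was highest on the arrays where both genes were highest. It was 4.94, 4.69 and 5.55 at 0 d, 6.58, 6.99 and 6.36 at 0.25 d, 5.49, 5.58 and 6.53 at 0.5 d, and 5.15 to 5.20 at 0.75 d. Within 0.25 d its highest array, replicate 2, had the lowest Tead1 (8.80). This mean was also high on the third arrays of 2 d (6.05) and 7 d (6.61). There Tead1 read 7.05 and 6.61, and Ccn2 5.90 and 6.19. Cidec, a lipid droplet protein that fat-storing hepatocytes can also make, went from 4.57, 3.93 and 4.10 at 0 d to 9.70, 9.04 and 9.80 at 0.25 d, with 6.22, 6.39 and 9.89 at 0.5 d. Adipoq, the adipocyte hormone gene, had overlapping values, at 2.82, 2.97 and 5.38 at 0 d, 3.28, 5.80 and 2.76 at 0.25 d, and 3.10, 3.13 and 3.05 at 0.5 d. Of the 4 tested adipocyte markers, 2 were called higher at 0.25 d, beside 17.2% of all genes. Markers of neutrophils, 6 measured of 7 listed, also had a higher mean at 0.25 d (5.86 to 6.08) than at 0 d (4.85 to 5.04). Of the 5 tested, 4 were called higher, beside 17.2% of all genes. Cholangiocyte markers, 6 measured of 8 listed, averaged 5.19 to 5.48 at 0.25 d and 4.70 to 5.12 at 0 d. Of the 5 tested, 3 were called higher (17.2% of all genes): Epcam, Sox9 and Tspan8, by 0.64, 1.36 and 0.73. The defining keratins of that list were not called, with Krt19 at +0.10 ± 0.23 (adjusted p = 0.757) and Krt7 at -0.03 ± 0.26 (adjusted p = 0.928) in limma. The third 0.5 d array, at 5.10, did not stand above the other 0.5 d arrays for these markers. The stellate cell and fibroblast markers, a lineage that can make Ccn2, averaged 7.19, 7.33 and 7.86 at 0 d and 7.23, 7.51 and 6.93 at 0.25 d, which overlap. Of these 10 markers 3 were called higher and 2 lower, beside 17.2% and 28.8% of all genes. The part of any of these cell types in the Tead1 and Ccn2 values was not tested.

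**Figure D4:**
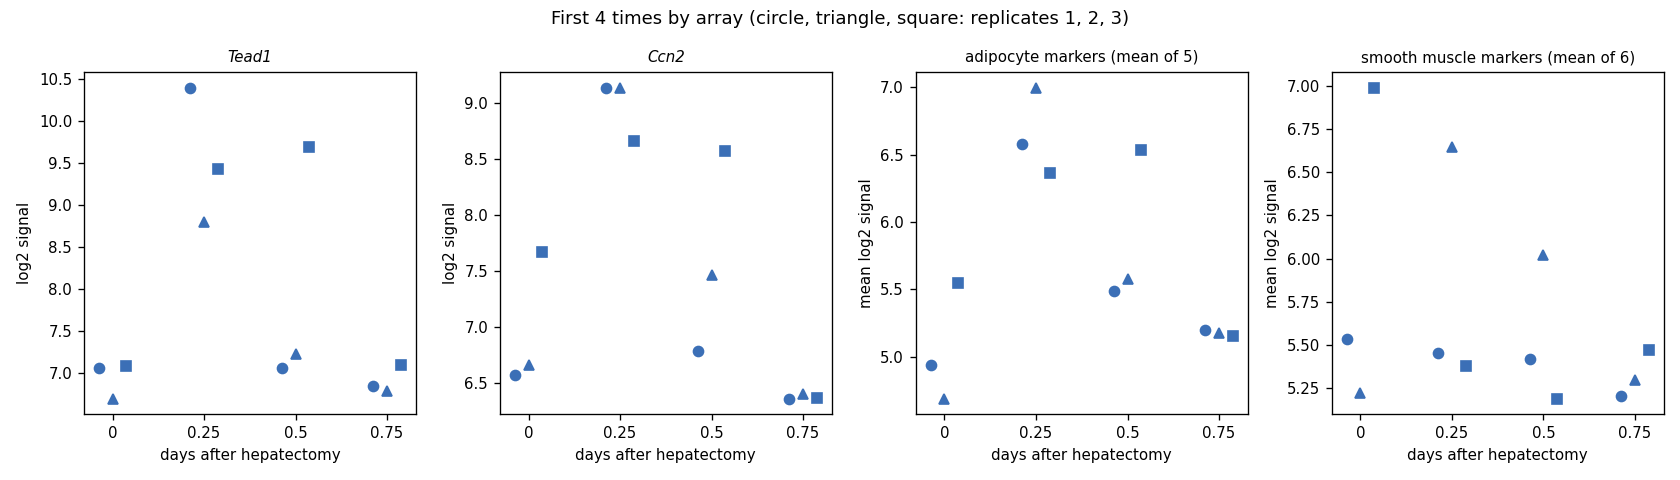
Log2 signal of Tead1 and Ccn2 and mean log2 signal of the adipocyte and vascular smooth muscle marker lists (vertical axes) on each array of 0, 0.25, 0.5 and 0.75 d (horizontal axis); circles, triangles and squares are replicates 1, 2 and 3. The third 0.5 d array reads 9.69 for Tead1, 8.57 for Ccn2 and 6.53 for the adipocyte list, near the 0.25 d arrays, and the third 0 d array has the highest smooth muscle mean, 6.99.

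Ccn1, the other CCN family member and a matricellular protein made by several liver cell types, was not called at 0.25 d. It read 5.83, 6.18 and 6.41 at 0 d and 5.92, 6.36 and 5.13 at 0.25 d, a difference of -0.33 ± 0.28 (adjusted p = 0.34). It was 7.13, 6.68 and 5.97 at 0.5 d, where the step from 0.25 d was +0.79 ± 0.28 (adjusted p = 0.0461) although the groups overlap. That call was lost without each of 16 single arrays (adjusted p 0.0502 to 0.294). The third 0.5 d array was the lowest, and without it the step was +1.10 (adjusted p = 0.00628, limma). Against 0 d, the 0.5 d difference was +0.46 ± 0.28 (adjusted p = 0.224), and +0.77 and called without that array (0.0491). With the mean of the 4 Ccn1 probe sets the step was +0.68 and not called (0.243). No single Ccn1 probe set was called for it (0.0506 to 0.515 over probe sets). At 2 d Ccn1 read 6.96, 7.25 and 6.68, above all 0 d arrays. That rise was 0.82 ± 0.28 (adjusted p = 0.0355), or 1.77-fold. It was lost without each of 4 arrays (0 d replicates 1 and 2, 2 d replicates 1 and 2; adjusted p 0.0712 to 0.151) and with the mean of the 4 Ccn1 probe sets (0.61, adjusted p = 0.307). One further probe set, 1438133_a_at, was called at 2 d (+0.91 ± 0.28, adjusted p = 0.0196), while 1442340_x_at (+0.32 ± 0.57, adjusted p = 0.748) and 1457823_at (+0.38 ± 0.54, adjusted p = 0.674) were not.

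Ankrd1, a nuclear and sarcomeric ankyrin repeat protein often used as a readout of YAP activity in cultured cells, was not measurable above the threshold. Its values ran from 3.81 to 4.89 over the 33 arrays with a median of 4.27, and none reached log2 5. At 0.25 d, when Ccn2 was high, Ankrd1 read 4.41, 4.56 and 4.12, beside 3.95, 4.30 and 4.60 at 0 d. The second Ankrd1 probe set was also below log2 5 on all arrays.

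Amotl2, a target gene whose angiomotin family product holds YAP at junctions, was lower in the first days. It read 8.22, 8.37 and 8.40 at 0 d and 7.64, 8.08 and 7.70 at 0.25 d, with no overlap. The difference was -0.52 ± 0.14 (95% interval -0.80 to -0.24, adjusted p = 0.00279), and it was kept whichever single array was left out. Inside the later run of accession numbers, 0.25 d and 0.75 d (8.07, 8.22 and 7.84) differed by -0.24 ± 0.14 and were not called apart (adjusted p = 0.198). The 0.75 d mean was itself -0.29 ± 0.14 from 0 d (adjusted p = 0.133, limma), so this comparison does not measure the fall from 0 d. In a fit of the earlier run alone, which holds 0 d, Amotl2 was called lower at 1 d (-0.31, adjusted p = 0.0394) and 3 d (-0.29, 0.0484). In the fit of all arrays these were not called (0.116 and 0.134).

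Amotl2 was also called lower at 1.5 d (-0.42 ± 0.14, adjusted p = 0.0293) and at 2 d (-0.43 ± 0.14, adjusted p = 0.0215), where its arrays were 7.89, 7.78 and 8.02. Each of these calls was lost without 4 single arrays, namely 0 d replicate 2 or 3, 1.5 d replicate 2 or 3 for the former, and 2 d replicate 1 or 2 for the latter. The 0.5 d arrays were 8.07, 8.25 and 7.62, so the third replicate was the lowest, and the difference of -0.35 ± 0.14 (adjusted p = 0.046) was -0.17 without it (adjusted p = 0.375). That call was lost without each of 15 arrays. At 14 d the arrays were 8.10, 8.50 and 8.24, -0.05 from 0 d. Thus of the 4 target genes, 1 was called higher and 1 lower at 0.25 d, 1 was not called, and 1 was below the threshold. Of all genes tested, 17.2% were called higher and 28.8% lower at that time.

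The genes whose pattern over the 33 arrays was most like each varying member are given by Pearson correlation over all tested genes, as a description. For Tead1 they were Ptpn2 (0.97), Jmjd1c (0.96) and Tiparp (0.95), with Tiparp going from a mean of 6.80 at 0 d to 9.20 at 0.25 d. For Ccn2 they were Rab30, Cebpd and Tgoln1 (each 0.91); Rab30 went from 6.12 to 9.70 and Cebpd, an acute-phase transcription factor, from 7.13 to 9.70. Those for Yap1 were Sap30bp (0.92), Creb3 (0.91) and Golga3 (0.90), and those for Lats1 were Khdc4 (0.84), Sec16a (0.79) and Foxj3 (0.78). Wwtr1 went most closely with Postn (0.77), the gene of the matrix protein periostin, Arhgef2 (0.74) and Oit3 (0.73). Amotl2 went with Cyp2d13 (0.84), D130020L05Rik (0.82) and 1600014C10Rik (0.81), all lower at 0.25 d than at 0 d. Among the members themselves, the correlations of largest size were Tead1 with Ccn2 (0.82), Yap1 with Lats1 (0.71), Yap1 with Ccn2 (0.675), Tead1 with Amotl2 (-0.65) and Yap1 with Tead1 (0.57).

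Beyond the members, 24 of 28 listed upstream regulators and partners were tested. At 0.25 d, 4 were called higher and 5 lower, beside 17.2% and 28.8% of all genes. The median difference of the 24 was -0.15, and that of all genes -0.03, both as deposited. Giving the tested genes a common median shifts every gene of a comparison by the same amount. It took the median of all genes to 0.135, and the list median moves with it. Of all genes called at 0.25 d, 0.5 d and 1.5 d, 37.4%, 44.9% and 41.7% were higher, and 64.1%, 55% and 54.8% under that scaling. The genes with the largest called differences were Taok3, a kinase acting above the pathway, at -0.80 ± 0.27 (adjusted p = 0.019), Amot, an angiomotin that binds YAP, at -0.78 ± 0.18 (0.00103), Limd1, a LIM protein that binds LATS, at -0.70 ± 0.09 (1.37e-06), and Rassf1, a scaffold of the upstream kinases, at +0.69 ± 0.12 (5.73e-05), all at 0.25 d. Amot read 7.33, 7.53 and 7.58 at 0 d and 6.21, 7.16 and 6.74 at 0.25 d, so that it was low together with its family member Amotl2. At 0.5 d Amot read 7.53, 7.70 and 7.02, with the third array below all of 0 d and the others not. Over all times 13 of the 24 varied by the F-test, beside 69.4% of all genes.

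Of 20 other genes reported as YAP and TAZ targets, 16 were tested and 14 varied by the F-test, beside 69.4% of all genes. At 0.25 d, 2 were called higher and 6 lower (17.2% and 28.8% of all genes), and at 0.5 d, 1 and 4, with 15.8% and 19.4% of all genes higher and lower at the latter time. At 2 d, 1 was higher and 1 lower (11% and 11.6% of all genes). Ajuba, a LIM protein that also binds LATS, fell by 1.32 ± 0.29 at 0.25 d (adjusted p = 0.000625), its arrays going from 6.93, 7.16 and 6.85 to 5.32, 5.96 and 5.71. Birc5, the mitotic gene of survivin, was higher at 3 d by 3.85 ± 0.42 (adjusted p = 8.06e-07), at 9.39, 9.36 and 9.19. The mean of the 7 measured cell cycle markers was high at the same time, 9.56, 9.64 and 9.31 at 3 d beside 6.43, 6.54 and 7.11 at 0 d, and its part in the Birc5 value was not tested. Igfbp3, a carrier of insulin-like growth factors, fell by 2.04 ± 0.28 at 2 d (adjusted p = 6.17e-06), and Nt5e, the ectoenzyme CD73, higher at 3 d by 1.17 ± 0.30 (0.00685).

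SRF and its actin-regulated cofactors MRTF share several targets with YAP, Ccn1 and Ccn2 among them, so a list of SRF and MRTF target genes was set beside the others, with 17 of 18 tested and 14 varying by the F-test (69.4% of all genes). At 0.25 d, 5 were called higher in limma, beside 17.2% of all genes; after quantile normalization it was 8, as the number of all genes called higher went from 2340 to 3084. At 0.5 d, 5 were called higher and 2 lower, beside 15.8% and 19.4% of all genes. At 0.75 d it was 4 higher and 3 lower, beside 9.84% and 12.7%, with a list median of -0.07. At 1.5 d and at 2 d, 8 were called higher, beside 8.33% and 11% of all genes called higher. Actg1, a cytoplasmic actin, went from 10.68, 10.90 and 10.95 at 0 d to 13.02, 12.73 and 12.55 at 0.25 d and 12.94, 13.00 and 12.93 at 0.5 d, where it was higher by 2.11 ± 0.25 (adjusted p = 2.98e-07). Tpm4 was higher at 2 d by 1.49 ± 0.16 (adjusted p = 2.55e-07), Tpm1 at 1 d by 1.23 ± 0.20 (0.000119) and Tagln2 at 3 d by 1.08 ± 0.18 (0.000143). Tpm1 and Tpm4 are tropomyosins and Tagln2 is a calponin family protein that binds actin. Actg1 stayed high at 0.75 d (12.37, 11.87 and 12.48), when Tead1 and Ccn2 were back near 0 d values.

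**Figure D5:**
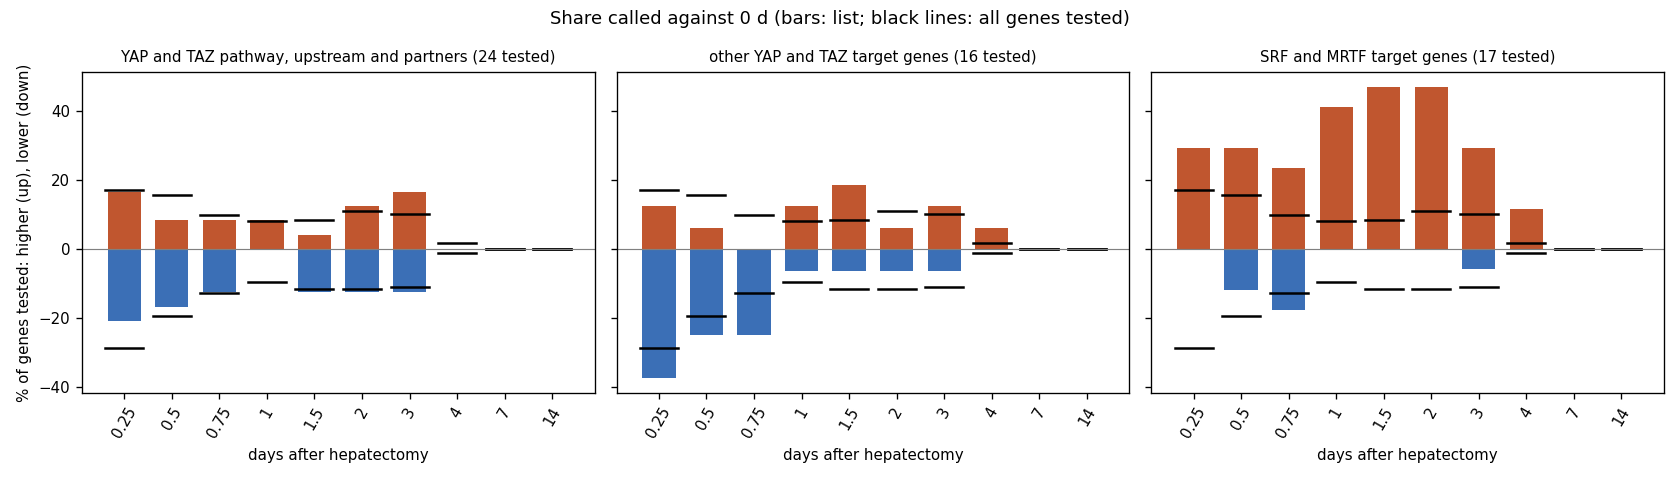
Percent of the tested genes of each list called higher (upward bars) or lower (downward bars) than 0 d (vertical axis) at each later time (horizontal axis, days after hepatectomy), with black lines for the same percent over all 13642 genes tested. In the SRF and MRTF list the upward bars stand for 8 of 17 genes at 1.5 d and at 2 d, above the black lines at 8.33 and 11%.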

How the data were processed

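Mouse liver RNA from 33 samples (11 times after partial hepatectomy, 3 per time) was labelled with biotin from 5 µg of total RNA. The deposited values are log2 signals; the submitters' processing notes name RMA as the authors' method, and its version and annotation release are not given in the sources used here. Signals ran from 1.68 to 14.89; the number of arrays limits the precision, and the labels call replicates biological.

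Of 45101 probe sets, 64 controls were dropped, 34945 had a single symbol, 932 several and 9160 none; 34741 matched RefSeq by Entrez identifier. The brightest probe set on average stood for a gene. limma 3.58.1 in R 4.3.3 fitted a mean per time on all 33 arrays (22 residual degrees of freedom, two-sided moderated tests); the pipeline was tested on simulated data. Promoter windows are RefSeq's, without the last 50 bases; figures used matplotlib 3.10.9.

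Members, gene lists and comparisons were chosen with earlier results of these data known. Named genes were the members, up to 4 genes per pathway list with the largest called difference from 0 d, and the 3 genes most correlated with each varying member. Alternatives changed the filter, probe set rule, scaling, array weights, prior, samples, replicate block and adjustment. Protein sequences were not used here.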

Additional observations from a re-analysis of the deposited data

How the results depend on the processing

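Of the 25 results called for a member, 8 kept their call under every planned and added alternative, 10 kept it without any single array, and 0 reversed. Numbers of members called that changed by more than 1.5-fold are given next, and smaller changes are not all listed. Among the smaller ones, without a filter Amotl2 at 0.5 d, Lats1 at 2 d and the Ccn1 step to 0.5 d were not called. A common median over all probe sets lost Lats1 at 2 d and added Lats2 at 0.25 d. A trend and robust prior lost the Ccn1 step. With the mean of the probe sets, the call at 3 d passed from Yap1 to Lats1. A filter at log2 7 gave 2 at 3 d, 2 from 0.5 d to 0.75 d and 1 from 0.75 d to 1 d. The mean of the probe sets gave 1 at 0.75 d, 0 at 1 d, 1 at 2 d and 2 from 0.25 d to 0.5 d. Quantile normalization gave 5 at 0.25 d, 2 from 0.25 d to 0.5 d and 1 from 0.75 d to 1 d. Scalings over the tested genes only were chosen after seeing the data: the quantile form gave 6 at 0.25 d, 1 at 1.5 d, 2 at 3 d and 1 from 0.75 d to 1 d, and a common median gave 6 at 0.25 d, 0 at 1 d, 2 at 3 d and 2 from 0.25 d to 0.5 d. Array weights gave 1 at 0.5 d, 1 at 0.75 d, 3 at 1 d, 2 at 3 d, 0 from 0.5 d to 0.75 d and 1 from 0.75 d to 1 d. Fitting only the arrays compared gave 0 at 0.5 d, 0 at 1 d, 2 at 2 d, 0 from 0.25 d to 0.5 d and 0 from 0.5 d to 0.75 d, with fewer samples behind the spread. The earlier run of accession numbers alone gave 2 at 1 d and 3 at 3 d, and there the F-test adjusted p was 0.275 for Lats1 and 0.153 for Ccn2, with the 4 times of the later run left out. A joint adjustment over comparisons gave 1 at 0.5 d, 1 at 7 d (Yap1), 1 at 14 d (Yap1), 2 from 0.5 d to 0.75 d and 1 from 0.75 d to 1 d. Where no construction above shows it, the cause was not tested. Without single arrays the number varying ran from 5 to 7, and the number called from 3 to 4 at 0.25 d, 1 to 4 at 0.5 d, 0 to 2 at 0.75 d and 1 d, 0 to 3 at 1.5 d, 0 to 4 at 2 d, 1 to 2 at 3 d, 1 to 4 from 0.25 d to 0.5 d, 0 to 3 from 0.5 d to 0.75 d and 0 to 1 from 0.75 d to 1 d. Over all genes, the count called at 0.25 d (6265) ran from 3702 with only the arrays compared to 7411, at 0.5 d (4808) from 2443, at 2 d (3074) from 1663, from 0.25 d to 0.5 d (2898) from 131 and from 0.5 d to 0.75 d (313) from 1 to 623; the count varying (9470) was 5664 in the earlier run of accession numbers. Whether replicate numbers pair the arrays was not tested. In deviations from the time means, same-numbered arrays of different times correlated with a median of 0.02 (lowest -0.35). The median was -0.01 for different numbers. Of the 165 same-numbered pairs 33 were over 0.1, and 17 of 33 arrays correlated best with their own number. No level to be met by accident was computed for these counts. With the replicate block, 7 members varied in place of 6 (Ccn1, adjusted p = 0.00928), and at 0.25 d 3 were called, as without it.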
